A study of Mus musculus with 6 samples.

Results

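The 41 genes described here encode transcription factors of the neural lineage, out of 21938 protein-coding genes of the mouse assembly GRCm38 (also called mm10), counting the 19 autosomes, X and Y. They are listed by name, and the list was drawn up with earlier results of these data known. Of these, 14 were grouped here as progenitor factors (Sox1, Sox2, Sox9, Pax6, Emx1, Emx2, Lhx2, Nr2e1, Nr2f1, Hes1, Hes5, Id1, Id3 and Rest). A further 21 drive neurogenesis or specify neuronal fates (Neurog1, Neurog2, Neurod1, Neurod2, Neurod4, Neurod6, Eomes, Insm1, Hes6, Tbr1, Bcl11a, Bcl11b, Fezf2, Cux1, Cux2, Pou3f2, Pou3f3, Sox4, Sox11, Myt1l and Prox1). The remaining 6 act in the ventral forebrain or the oligodendrocyte lineage (Dlx1, Dlx2, Gsx2, Nkx2-1, Olig1 and Olig2).

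Trimethylation of lysine 9 of histone H3 (H3K9me3) was mapped by chromatin immunoprecipitation and sequencing in neural stem cells (NSCs) of the C57BL/6J fetal cerebral cortex, to ask how the mark changes when the histone demethylase PHF8 is depleted. The cells were infected with a lentivirus of the pLKO type carrying either a scramble shRNA (shCTR) or one that targets PHF8 (shPHF8), so that all libraries came from transduced cells grown with EGF and FGF. Each condition had 2 ChIP libraries and 1 input, and the inputs were not used here. Each condition rests on 1 shRNA, and the labels do not say whether replicates were separate cultures, so the spread between replicates may be technical.

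In the developing cortex, progenitors express SOX2, PAX6, EMX and HES factors, the last as effectors of Notch signalling. Proneural basic helix-loop-helix factors such as NEUROG2 start neuronal differentiation, NEUROD factors carry it forward, and factors such as TBR1, FEZF2 and BCL11B give cortical neurons their layer identity. H3K9me3 is best known from constitutive heterochromatin and repeats, and it is also found in broad domains over silent lineage genes.

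The deposited data were 1 list of broad peaks per library, each peak given by its position without height or score. Peak edges moved in steps of 200 bp. The lists held 44316 to 55555 peaks on the chromosomes used and covered 157 and 160 Mb in the shCTR libraries and 219 and 197 Mb in the shPHF8 libraries, a ratio of condition means of 1.32. Peaks were widest in shPHF8 replicate 1, with a median of 4200 bp beside 2400 to 2800 bp in the other libraries. Read depth is not held in the lists, but by the mapping statistics of the study neither shPHF8 library had more uniquely mapped reads than a shCTR library. The part that the calling of peaks has in the longer coverage was not tested. RNA was not measured in these files, so neither the depletion of PHF8 nor the identity of the cells could be checked by expression. As a description, of the progenitor genes Sox2, Pax6, Nes and Sox9 and the neuronal genes Tubb3, Dcx and Rbfox3, Pax6 alone had a peak within 3 kb of its start in all 4 libraries. A gene was called up where each shPHF8 library exceeded each shCTR library in bases under peaks, and down in the opposite case. An exact two-sided permutation test of 2 libraries against 2 cannot go below p = 0.33, so no call was made by p.

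H3K9me3 peaks lay near the starts of these genes more often than near those of protein-coding genes in general. Within 3 kb of the start, referred to here as the promoter window (6001 bp), 15 of the 41 genes had a peak in all 4 libraries (36.6%), where 11.1% of protein-coding genes did. At least 1 library had a peak there for 24 of the 41 (58.5%, 28.0% of protein-coding genes), and 17 genes had none. The start base itself lay under a peak in all 4 libraries for 8 genes (19.5%, beside 3.62% of protein-coding genes). These were Pax6, Emx1, Neurog1, Neurod2, Fezf2, Dlx1, Gsx2 and Nkx2-1. The number of genes with a promoter peak was 22 and 21 in the shCTR libraries and 16 and 18 in the shPHF8 libraries. Over the 21938 protein-coding genes it was 4212 and 4464 in shCTR and 3789 and 3972 in shPHF8, also lower in both shPHF8 libraries.

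**Figure D1:**
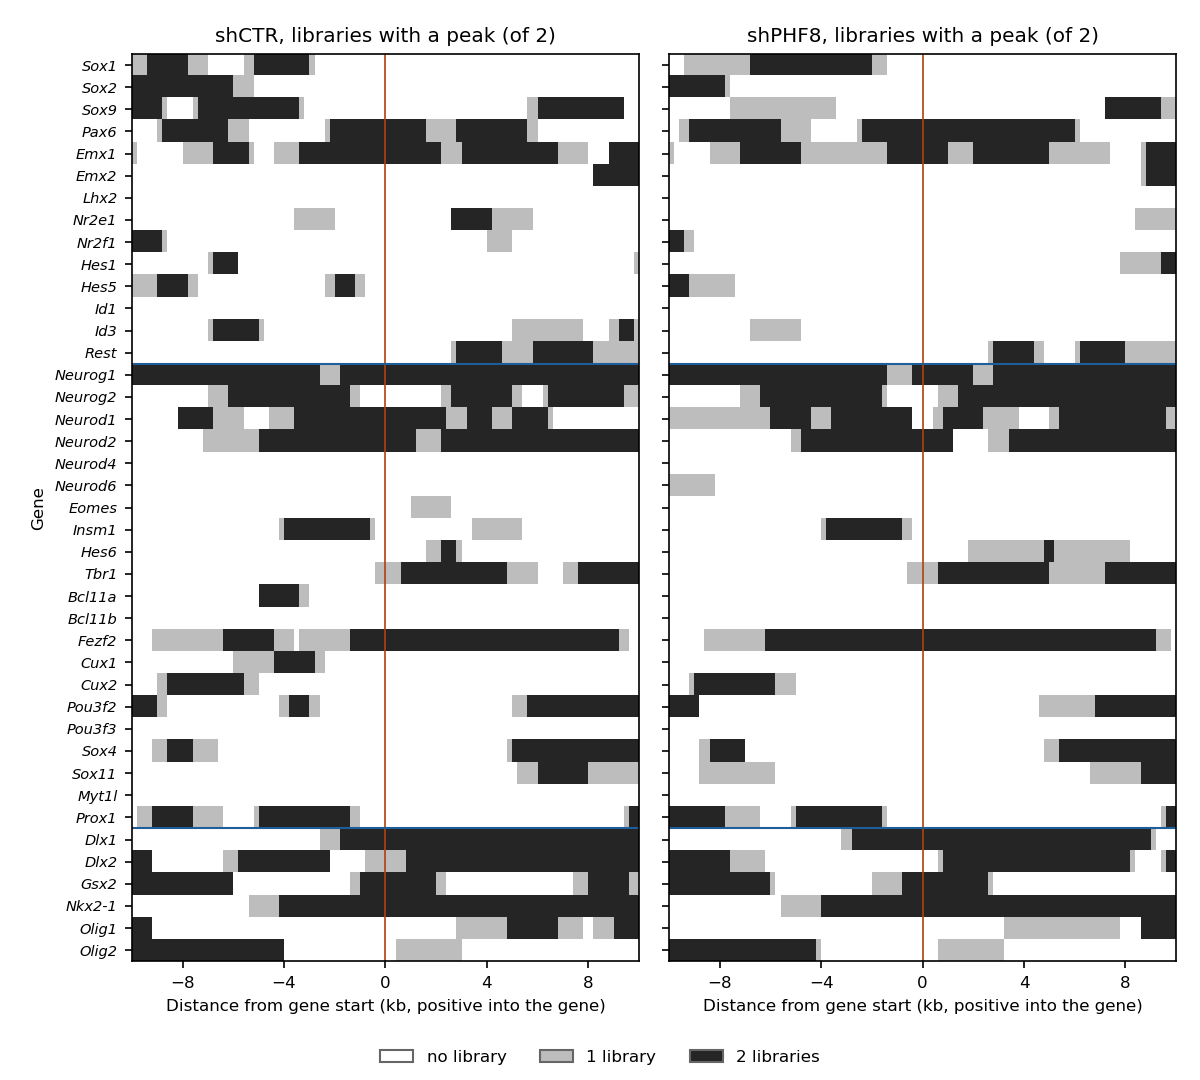
H3K9me3 peaks around the starts of the 41 genes, by distance from the gene start in kb (positive into the gene), in shCTR (left) and shPHF8 (right). Grey marks bases under a peak in 1 of the 2 libraries of the condition and black bases under a peak in both; blue lines separate progenitor, neuronal fate and ventral genes, and the start bases of Pax6, Emx1, Neurog1, Neurod2, Fezf2, Dlx1, Gsx2 and Nkx2-1 are black in both panels.

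The 3 groups of factors differed in how many members carried the mark at the promoter. A peak in all 4 libraries was present at 3 of 14 progenitor factors (21.4%; Pax6, Emx1 and Rest). It was present at 8 of 21 neuronal fate factors (38.1%; Neurog1, Neurog2, Neurod1, Neurod2, Insm1, Tbr1, Fezf2 and Prox1). It was present at 4 of 6 ventral and oligodendrocyte factors (66.7%; Dlx1, Dlx2, Gsx2 and Nkx2-1). The start base was covered in all 4 libraries at 2 progenitor (14.3%), 3 neuronal fate (14.3%) and 3 ventral genes (50.0%), so on this narrower measure progenitor and neuronal fate factors had the same share. Over the gene body, peaks in all 4 libraries were found at 4 of 14 (28.6%), 11 of 21 (52.4%) and 4 of 6 genes (66.7%). Beside 29.4% of protein-coding genes, the progenitor share was near the background. Gene length was not adjusted for, and a longer gene has more bases in which a peak can fall. The 11 neuronal fate genes include Bcl11a, Bcl11b, Cux1, Cux2, Myt1l and Prox1, each over 50 kb long. The longest progenitor gene, Lhx2, has 30453 bp. Dlx1 and Dlx2 are neighbours, and in each shCTR library 1 peak reached both promoter windows, so these 2 of the ventral genes are not separate entries. Genes are not replicates, and no test was made between these groups.

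**Figure D2:**
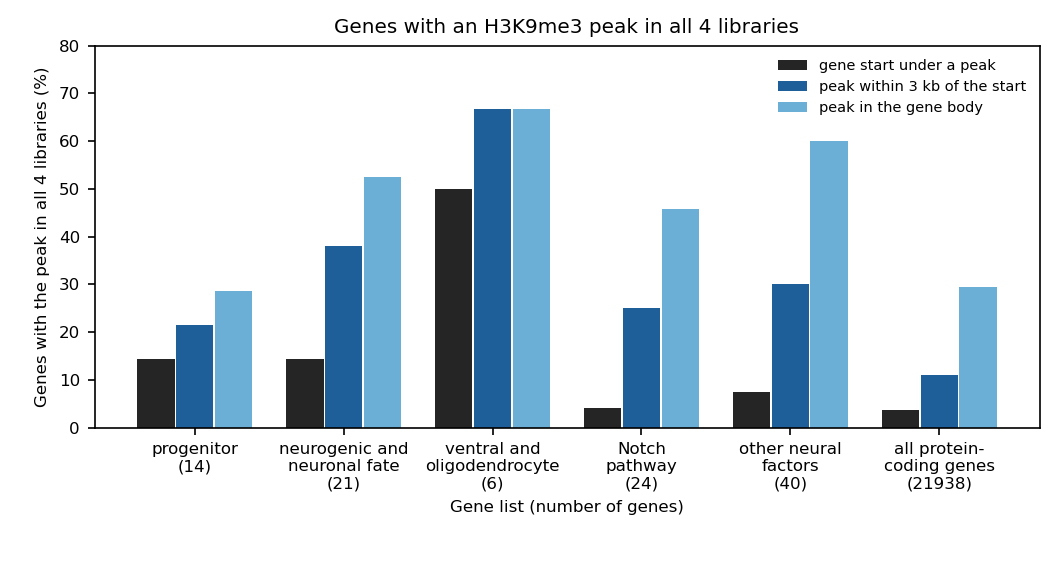
Share of genes (%) with a peak in all 4 libraries over the start base (black), within 3 kb of the start (dark blue) and in the gene body (light blue), for each gene list and for all protein-coding genes, with the number of genes in brackets. The promoter share was 21.4% for progenitor, 38.1% for neuronal fate and 66.7% for ventral factors, beside 11.1% of protein-coding genes.

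Among progenitor factors, 8 of 14 had no promoter peak in any library, namely Sox2, Sox9, Emx2, Lhx2, Nr2f1, Hes1, Id1 and Id3. Sox2, the core pluripotency and neural stem cell factor, had no peak in its promoter or body. The nearest peak edge lay 5205 and 6005 bp off in shCTR and 7605 and 7805 bp in shPHF8, farther in both shPHF8 libraries. Id1, an inhibitor of basic helix-loop-helix factors, was the most isolated progenitor gene, with the nearest peak 26451 to 28451 bp away across the 4 libraries. Id3, its relative, had its nearest peak at 4897 and 2646 bp in shCTR and 11697 and 4897 bp in shPHF8. Lhx2, which maintains cortical identity, had peaks inside the gene, over 7333 and 8133 bases in shCTR and 9933 and 5800 bases in shPHF8, and the conditions overlapped. In both shCTR libraries and in shPHF8 replicate 1 a peak also ran past its 3' end. In Nr2f1, a regulator of cortical areas, a peak within the gene was called in shCTR replicate 1 alone (1000 bases). Sox9, Emx2, Hes1, Id1 and Id3 had no peak in the gene body in any library.

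Pax6 and Emx1 were the progenitor genes with the most promoter coverage. Pax6, which sets dorsal progenitor identity (chr2:105668900-105697364, plus strand), had 4300 and 5300 promoter bases under peaks in shCTR and 5500 and 5700 in shPHF8. Both shPHF8 values were above both shCTR values, with a gap of 1 step of 200 bp between the closest libraries. In the body of Pax6, 13701 and 14101 bases were covered in shCTR and 17501 and 18301 in shPHF8, which is 48.1 and 49.5% of the gene against 61.5 and 64.3%. Exons made up 4827 and 4341 of these bases in shCTR and 7081 and 7117 in shPHF8, of 11694 exonic bases. Inside the gene, a peak starting about 10 kb from the start ended at 14100 and 13900 bp in shCTR, and another ran from 16701 and 16901 bp to 21900 bp in both. In shPHF8 a single peak spanned both of these and the stretch between them, ending at 22100 and 22700 bp. After scaling each library to the same genome-wide covered total, both Pax6 differences turned, to -604 bases at the promoter and -271 in the body.

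Emx1, a marker of dorsal cortical progenitors (chr6:85187438-85204462, plus strand), had 5201 and 6001 promoter bases covered in shCTR and 5001 and 4438 in shPHF8. Both shPHF8 values were lower, the closest pair again by 200 bases. Upstream of Emx1 the order was the opposite, with 9437 and 11837 of 50 kb covered in shCTR and 17637 and 12837 in shPHF8. Rest, the repressor of neuronal genes, had a peak beginning 2510 or 2710 bp inside the gene that reached 491 and 291 promoter bases in shCTR and 291 and 491 in shPHF8, and the condition means were equal. Body coverage overlapped between conditions in both genes, with 10563 and 12563 bases of Emx1 in shCTR against 10763 and 9763 in shPHF8, and 4400 and 8000 bases of Rest in shCTR against 7400 and 3600 in shPHF8.

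At 3 progenitor promoters peaks were called in some libraries only. Hes5, a Notch effector that holds progenitors undifferentiated (chr4:154960923-154962371, plus strand), had 1200 promoter bases covered in each shCTR library and 0 in each shPHF8 library. This was the widest gap between the closest libraries of the conditions at a promoter among the 41 genes. The peaks were narrow, however, and with wide peaks only (at least 2000 bp) the difference was 0, while within 1 kb of the start it was -139 bases and the conditions were no longer separate. The peak ran from 1922 to 723 bp upstream of the start in shCTR replicate 1 and from 2322 to 1123 bp upstream in replicate 2, and 800 bp were common to both. The nearest peak to Hes5 was 723 and 1123 bp away in shCTR and 7323 and 9123 bp in shPHF8. Nr2e1, the orphan receptor TLX of adult and fetal stem cells, had 1401 and 369 promoter bases covered in shCTR and 0 in both shPHF8 libraries. Its body overlapped between conditions, with 1600 and 3200 bases in shCTR against 2600 and 0 in shPHF8. Sox1, an early neural SOX factor (chr8:12395295-12400126, plus strand), changed in the other direction, with 106 and 0 promoter bases in shCTR and 1506 and 906 in shPHF8. A peak upstream of Sox1 ended 2895 and 3095 bp before the start in shCTR, and 1495 and 2095 bp before it in shPHF8.

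The middle 300 bases of the stretches that separated the conditions are shown for Hes5 (under a peak in both shCTR libraries and neither shPHF8 library) and Sox1 (the reverse), because they are the promoter bases on which these calls rest. Both stretches are 800 bp long, Hes5 at chr4:154959001-154959800 and Sox1 at chr8:12392401-12393200, the latter within the noncoding transcript Sox1ot. Capitals mark CANNTG, the E-box bound by basic helix-loop-helix factors, which reads the same on both strands.
Hes5, chr4:154959251-154959550, plus strand: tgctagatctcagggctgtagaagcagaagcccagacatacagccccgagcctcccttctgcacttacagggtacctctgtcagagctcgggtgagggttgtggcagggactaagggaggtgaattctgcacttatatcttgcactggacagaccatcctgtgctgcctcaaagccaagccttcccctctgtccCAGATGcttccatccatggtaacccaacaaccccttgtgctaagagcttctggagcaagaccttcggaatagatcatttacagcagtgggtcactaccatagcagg
Sox1, chr8:12392651-12392950, plus strand: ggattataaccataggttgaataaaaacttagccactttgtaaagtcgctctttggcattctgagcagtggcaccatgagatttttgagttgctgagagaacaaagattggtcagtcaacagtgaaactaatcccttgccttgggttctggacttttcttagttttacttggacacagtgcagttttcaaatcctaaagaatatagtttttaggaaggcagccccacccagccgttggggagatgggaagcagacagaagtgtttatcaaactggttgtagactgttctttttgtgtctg
The Hes5 window held 1 E-box and 3 CpG and was 53.3% GC, while the Sox1 window held no E-box and 2 CpG at 41.7% GC. Neither held repeat-masked bases. Windows at the same offset of protein-coding genes held at least 1 E-box in 79.8% (Hes5 offset) and 80.3% (Sox1 offset), so a match or its absence singles out neither.

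Neurogenic factors of the NEUROG and NEUROD families carried some of the widest peaks of the set. Neurog1, a proneural factor (chr13:56250478-56252163, minus strand), lay entirely under peaks in all 4 libraries, with 1686 of 1686 bases covered in each, all of them exonic in the gene record. Its promoter window had 5201 and 6001 covered bases in shCTR and 6001 and 4201 in shPHF8, and the conditions overlapped. Neurog1 also had the highest flank coverage of the 41 genes, with 46514 and 52914 of the surrounding 100 kb in shCTR and 65677 and 57837 in shPHF8. The flank values did not overlap. Scaled to the same genome-wide total the difference turned to -3191 bases, and in flanks of 10 kb it was -500.

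Neurog2, the main proneural gene of the dorsal cortex (chr3:127633135-127635631, plus strand), had a different layout, in which peaks stood on both sides of an uncovered start in every library. The promoter window had 2401 covered bases in each shCTR library and 3201 and 3801 in shPHF8. In the gene body, 0 and 231 bases were covered in shCTR and 1031 and 1831 in shPHF8. The upstream peak ended between 935 and 1535 bp before the start across the 4 libraries. The downstream peak began 2666 and 2266 bp after the start in shCTR and 1466 and 666 bp after it in shPHF8, so that the uncovered stretch was shorter in both shPHF8 libraries. The flanks of Neurog2 had 12800 and 14169 covered bases in shCTR and 34569 and 20169 in shPHF8, the largest mean difference among the 41 genes at 13884.5 bases. Most of it lay downstream, with 6200 and 8569 bases in shCTR, against 26369 and 13969 in shPHF8.

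Neurod1, which acts downstream of the neurogenins (chr2:79452521-79456751, minus strand), had 6001 and 5351 promoter bases covered in shCTR and 4151 and 5201 in shPHF8. In shCTR a peak crossed the start, from 4649 bp upstream to 6550 bp into the gene in replicate 1 and from 3649 bp upstream to 2350 bp into the gene in replicate 2. In shPHF8 the peaks stopped 450 bp before the start in both libraries and began again 751 and 351 bp after it. Neurod1 was the only 1 of the 41 genes whose start was covered in both libraries of 1 condition and in neither of the other. Body coverage was 4231 and 3351 bases in shCTR, against 1600 and 3400 in shPHF8, which overlapped.

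The 250 bases before the start are shown for 3 genes that stand for the 3 layouts, Nkx2-1 (covered in all 4 libraries), Neurod1 (covered in the shCTR libraries alone) and Neurog2 (uncovered in all 4). They are given in the direction of transcription with E-boxes in capitals.
Nkx2-1, chr12:56536909-56537158, minus strand: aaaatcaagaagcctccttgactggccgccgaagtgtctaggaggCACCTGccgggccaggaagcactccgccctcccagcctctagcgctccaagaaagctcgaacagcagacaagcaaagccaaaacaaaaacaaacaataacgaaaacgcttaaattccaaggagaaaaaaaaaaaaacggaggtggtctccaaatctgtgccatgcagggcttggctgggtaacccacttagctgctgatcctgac
Neurod1, chr2:79456752-79457001, minus strand: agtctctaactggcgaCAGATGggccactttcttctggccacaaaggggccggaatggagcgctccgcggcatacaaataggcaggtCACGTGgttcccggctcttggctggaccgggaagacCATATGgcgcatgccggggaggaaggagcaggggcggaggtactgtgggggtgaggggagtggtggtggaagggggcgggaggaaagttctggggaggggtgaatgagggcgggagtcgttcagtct
Neurog2, chr3:127632885-127633134, plus strand: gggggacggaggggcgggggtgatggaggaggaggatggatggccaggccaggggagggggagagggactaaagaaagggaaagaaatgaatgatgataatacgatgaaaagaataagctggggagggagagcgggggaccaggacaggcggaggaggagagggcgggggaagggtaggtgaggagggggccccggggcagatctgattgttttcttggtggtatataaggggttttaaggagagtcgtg
The Neurod1 stretch held 3 E-boxes, the Nkx2-1 stretch 1 and the Neurog2 stretch none, where 64.1% of protein-coding genes had at least 1 in the same 250 bases. They held 14, 9 and 8 CpG in the same order, beside a median of 8 over protein-coding genes. The Neurod1 stretch also lies within an annotated transcript of Cerkl on the same strand and within the noncoding Gm26755 on the other, so a peak there cannot be assigned to Neurod1 alone. The Nkx2-1 stretch lies within the antisense gene Gm26973 on the other strand, so the same holds for Nkx2-1.

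Neurod2, a factor of maturing cortical neurons (chr11:98325415-98329648, minus strand), had 5001 and 6001 promoter bases covered in shCTR and 4601 and 4248 in shPHF8. Its body had 3234 and 4234 bases covered in shCTR and 2834 and 2034 in shPHF8. Both windows were lower in both shPHF8 libraries, by 400 bases between the closest pair. Neurod4 and Neurod6, also of this family, had no promoter or body peak in any library. Neurod4 was the most isolated of all 41 genes, with the nearest peak 348552 and 278952 bp away in shCTR and 275552 bp in both shPHF8 libraries. Its promoter also had the lowest GC content (38.7%) and CpG observed-to-expected ratio (0.102) of the set.

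**Figure D3:**
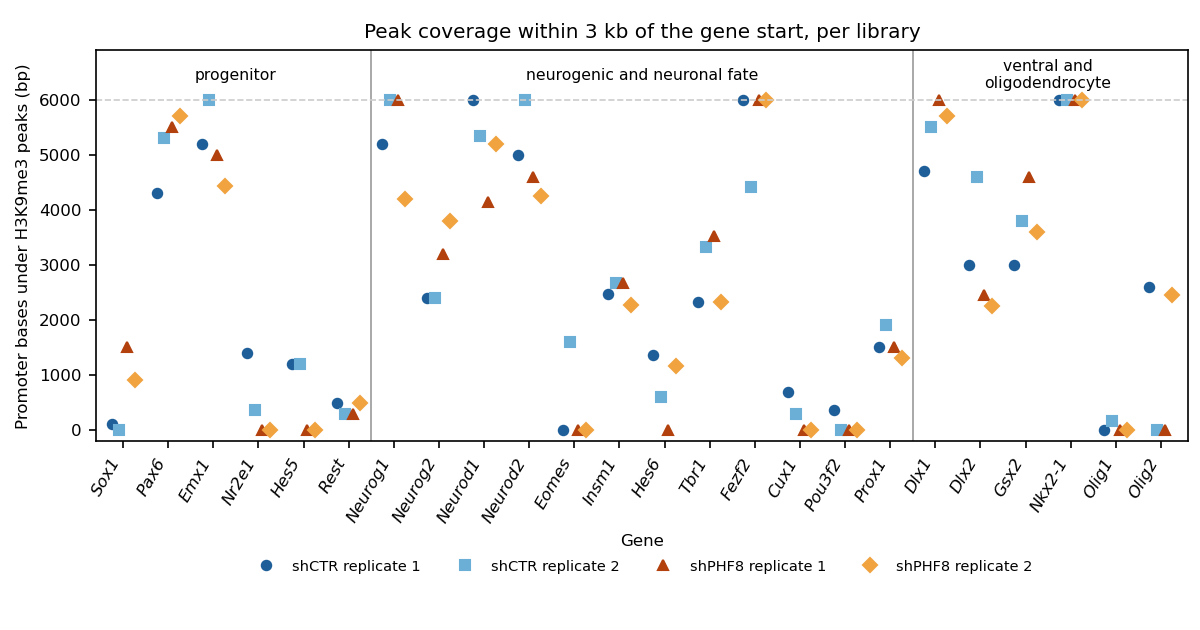
Bases under H3K9me3 peaks within 3 kb of the gene start (vertical axis, of 6001, dashed line) for the 24 genes with a promoter peak in at least 1 library. Each symbol is 1 library; Sox1, Pax6, Neurog2 and Dlx1 had both shPHF8 symbols above both shCTR symbols, and after scaling to the same genome-wide covered length Sox1 alone did.

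Among the other neuronal fate factors, promoter peaks present in all 4 libraries did not separate the conditions. Insm1, which drives basal progenitors to delaminate, had 2480 and 2680 promoter bases covered in shCTR and 2680 and 2280 in shPHF8, all upstream of the start. Tbr1, the layer 6 factor, had 2330 and 3330 bases in shCTR, against 3530 and 2330 in shPHF8, and its body was 64.4 to 93.6% covered across the 4 libraries. Fezf2, which specifies subcerebral projection neurons, was covered over its whole body of 6096 bases in every library. Its promoter window had 6001 and 4412 covered bases in shCTR and 6001 in both shPHF8 libraries. Prox1, a factor of dentate granule neurons, had 1514 and 1914 promoter bases in shCTR and 1514 and 1314 in shPHF8, again upstream of the start. For all 4 genes the promoter values of the conditions overlapped or touched.

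Promoter peaks at 4 neuronal fate genes were called in some libraries only. Cux1, an upper layer factor, had 690 and 290 promoter bases in shCTR and 0 in both shPHF8 libraries, from a peak whose edge entered the window 2311 and 2711 bp upstream. Eomes, the marker of intermediate progenitors, had 1600 bases in shCTR replicate 2 and 0 in the other 3 libraries. Pou3f2, an upper layer factor, had 366 bases in shCTR replicate 1 and 0 elsewhere. Hes6, an antagonist of HES1, had 1363 and 600 bases in shCTR, against 0 and 1163 in shPHF8. The calls at Eomes and Pou3f2 rested on 1 library each, and at Eomes, Pou3f2 and Hes6 the conditions overlapped.

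The remaining 7 neuronal fate genes beside Neurod4 and Neurod6 had no promoter peak in any library, and these were Bcl11a, Bcl11b, Cux2, Pou3f3, Sox4, Sox11 and Myt1l. Pou3f3, a relative of Pou3f2, had no body peak either. Sox4 and Sox11, SOX factors of newborn neurons, had peaks toward the 3' end of the gene, covering 82 and 0 bases of Sox4 in shCTR and 82 and 0 in shPHF8. In Sox11, 2000 and 3137 bases were covered in shCTR and 1737 and 0 in shPHF8, lower in both shPHF8 libraries.

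In the genes over 50 kb long, the start base lay under no peak in any library. Peaks upstream of the start still reached the promoter windows of Prox1, in all 4 libraries, and of Cux1, in shCTR alone. Cux2 is 193737 bp long, Myt1l 394830 bp, Bcl11b 93200 bp and Prox1 52680 bp. In Cux2, an upper layer factor (chr5:121856366-122050102, minus strand), 33800 and 27000 bases were covered in shCTR and 51435 and 48600 in shPHF8, the largest mean difference in a gene body among the 41 genes at 19617.5 bases. Each long gene was cut into 5 equal parts, counted from the start. Part 1 of Cux2 had 10600 and 5000 covered bases in shCTR and 15200 and 16000 in shPHF8, and part 2 had 8000 and 5200 in shCTR and 17400 and 11000 in shPHF8. Part 4 of Cux2 had no covered base in any library. In Myt1l, a neuronal factor that represses other lineages (chr12:29528384-29923213, plus strand), 26200 and 30400 bases were covered in shCTR and 55400 and 38800 in shPHF8. Part 3 of Myt1l had 3800 and 8000 bases in shCTR, against 19281 and 13685 in shPHF8, whereas part 5 had 11600 and 12400 in shCTR and 11000 and 9200 in shPHF8, so direction differed along the gene.

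Bcl11b, the factor of corticospinal neurons (chr12:107910403-108003602, minus strand), was the long gene with the largest covered share, at 44.4 and 45.3% in shCTR and 42.9 and 40.3% in shPHF8. Part 1 had no peak in any library. Part 4 was 72.1 and 60.5% covered in shCTR and 39.1 and 43.4% in shPHF8. In Prox1, 2566 and 5566 bases were covered in shCTR and 6966 and 5966 in shPHF8, with part 2 at 378 and 0 bases in shCTR, against 4778 and 3558 in shPHF8. Cux1, the longest gene after Myt1l at 319356 bp, had 2800 and 5800 covered bases in shCTR and 7000 and 6200 in shPHF8, never above 2.19% of the gene. Bcl11a, a relative of Bcl11b, had a single peak, in part 4, in every library, of 4000 and 3200 bp in shCTR and 5000 and 2800 bp in shPHF8.

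**Figure D4:**
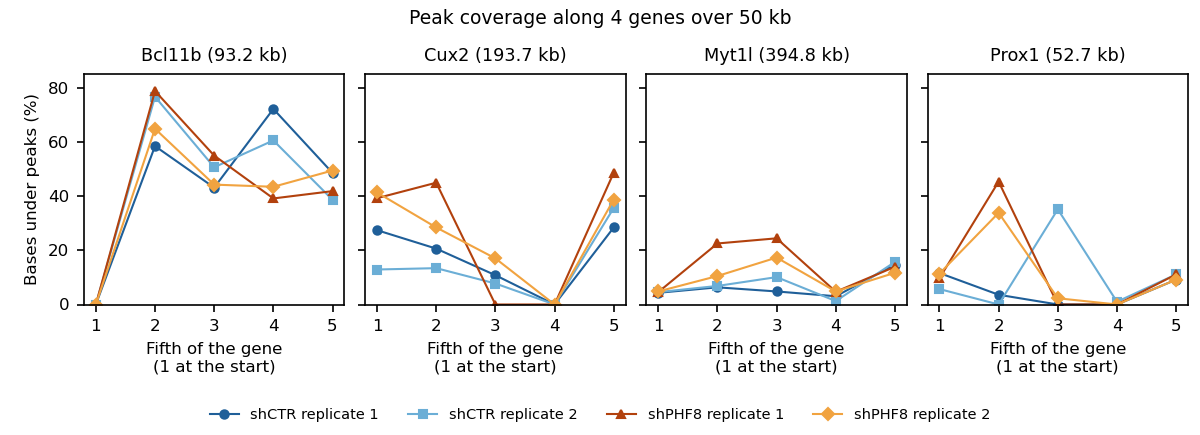
Share of bases under peaks (%) in each of 5 equal parts of 4 genes over 50 kb long, counted from the start, with 1 line per library. Both shPHF8 lines lie above both shCTR lines in part 1 of Cux2 and part 3 of Myt1l and below them in part 4 of Bcl11b; after scaling to the same genome-wide covered length, the bodies of Cux2 and Myt1l as a whole were still higher in both shPHF8 libraries, while with the widest peaks of each library kept to equal covered length Myt1l turned (-500 bases).

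The ventral genes, which specify interneuron progenitors outside the dorsal cortex, had the highest share of covered starts. Nkx2-1, the factor of the medial ganglionic eminence (chr12:56531958-56536908, minus strand), had all 6001 promoter bases and all 4951 body bases covered in every library. A single peak ran from 4292 and 5492 bp upstream to 19507 and 20307 bp past the start in shCTR. In shPHF8 it ran from 4092 and 5692 bp upstream to 33107 and 25107 bp past the start, so the peak extended farther beyond the gene in both libraries. Dlx1, needed for interneuron migration together with Dlx2 (chr2:71528113-71533981, plus strand), had 4713 and 5513 promoter bases covered in shCTR and 6001 and 5713 in shPHF8, and a fully covered body. Its promoter difference turned to -752 bases after scaling. Dlx2 lies 9426 bp from Dlx1 on the other strand, and it had 3001 and 4601 promoter bases in shCTR and 2447 and 2247 in shPHF8.

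In shCTR 1 peak reached from the Dlx1 promoter into Dlx2, ending 17887 and 19487 bp past the Dlx1 start. In shPHF8 the peak ended 9087 and 9287 bp past that start, and a separate peak covered 83.4 and 77.5% of Dlx2. The Dlx2 start lay under a peak in shCTR replicate 2 alone. Gsx2, which sets the lateral ganglionic eminence (chr5:75075601-75077893, plus strand), had 3000 and 3800 promoter bases in shCTR and 4600 and 3600 in shPHF8, which overlapped. Olig2, the oligodendrocyte and motor neuron factor, had 2600 and 0 bases in shCTR, against 0 and 2457 in shPHF8. Olig1, its neighbour, had 172 bases in shCTR replicate 2 and 0 in the other 3 libraries. At the Olig pair the libraries of a condition thus differed more than the conditions.

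Counted over the 41 genes, promoter coverage was up at 4 genes (Sox1, Pax6, Neurog2 and Dlx1, 9.76%), where 4.05% of protein-coding genes were up. It was down at 7 genes (Emx1, Nr2e1, Hes5, Neurod1, Neurod2, Cux1 and Dlx2, 17.1%), where 4.09% were down. Among the 6144 protein-coding genes with a promoter peak in at least 1 library, 14.5% were up and 14.6% down, to be read beside 4 and 7 of the 24 genes here. After scaling to the same genome-wide total, 1 of the 41 was up and 12 were down, beside 2.48 and 8.88% of protein-coding genes. Among the 12 was Nkx2-1, whose window was fully covered in every library and so is put down by construction. Only genes with a promoter peak can be called. Of the 6144 such protein-coding genes, scaling put 545 up and 1947 down, to be read beside 1 and 12 of the 24 here. Within 1 kb of the start the counts fell to 0 up and 1 down (Neurod1). With wide peaks only, Nr2e1, Hes5 and Cux1 were no longer down and 4 genes were. The counts within 1 kb and with wide peaks were made for the 41 genes alone, without a share over protein-coding genes.

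Gene body coverage was up at 6 of the 41 genes (Pax6, Neurog2, Cux1, Cux2, Myt1l and Prox1, 14.6%), where 13.0% of protein-coding genes were up, so this share was near the background. It was down at 3 genes (Neurod2, Bcl11b and Sox11, 7.32%), where 6.08% were down. At least 1 library had a body peak at 28 of the 41 (68.3%, beside 47.2% of protein-coding genes), and of protein-coding genes with such a peak 27.6% were up and 12.9% down. Scaling gave 3 up and 12 down, beside 6.98 and 14.1%. Of the 10353 protein-coding genes with a body peak it put 1532 up and 3085 down, to be read beside 3 and 12 of the 28 here. By construction, scaling puts a body that is fully covered in every library down. The 12 include such bodies, those of Neurog1, Fezf2, Dlx1 and Nkx2-1, so their calls show no change in coverage. By group, 5 of the 6 genes that were up and all 3 that were down before scaling were neuronal fate factors, among them the longest genes of the set. Neuronal fate factors were also 17 of the 28 genes with a body peak. The 5 up and 3 down of these 17 are to be read beside the 27.6 and 12.9% of protein-coding genes above. Without shPHF8 replicate 2 the counts were 10 up and 5 down, and without shPHF8 replicate 1 they were 6 up and 9 down. Without shCTR replicate 1 or 2, 8 or 6 bodies were down. When each library kept its widest peaks to equal covered length, 3 bodies were up and 5 down, and Cux1, Myt1l and Prox1 turned (-500, -500 and -2700 bases). Counts with a library left out or at equal length were made for the 41 genes alone, so how they compare with protein-coding genes is not known.

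The surroundings of these genes were richer in peaks than those of most genes. In the 50 kb on each side of the gene, the gene itself left out, 38 of 41 genes had a peak in all 4 libraries (92.7%), where 68.5% of protein-coding genes did, and 40 had one in at least 1 library (97.6%, beside 86.4%). The median flank coverage was 13318 and 14000 bases in shCTR, against 19429 and 16237 in shPHF8, beside 4800, 5000, 6759 and 6211 over protein-coding genes in the same order. By group, medians were 10253.5 to 12687 bases in the 4 libraries for progenitor factors, 12200 to 15166 for neuronal fate factors and 31713 to 36034 for ventral factors. Dlx1 and Dlx2 lie 9426 bp apart and Olig1 and Olig2 41094 bp apart. Their flanks share bases, so the ventral median counts some peaks more than once. After Neurog1, flank coverage was highest at Olig2 (44877 and 46000 bases in shCTR, 44477 and 34877 in shPHF8). Gsx2 followed with 38600 and 31507 in shCTR and 42907 and 38600 in shPHF8. Fezf2 had 38704 and 40304 in shCTR and 41304 and 25704 in shPHF8, and Nkx2-1 had 29249 and 30449 in shCTR and 37449 and 37249 in shPHF8. Of these 4 genes, Nkx2-1 and Olig2 separated the conditions, in opposite directions, and the difference at Nkx2-1 turned after scaling (-1586 bases).

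The least covered flanks belonged to 5 genes, none of them ventral. Neurod4 had no flank peak. Eomes had 2400 and 1400 bases in shCTR, against 0 and 3400 in shPHF8. Lhx2 had 4067 and 1867 in shCTR and 4467 and 2400 in shPHF8. Sox11 had 1000 and 3663 in shCTR and 6663 and 2800 in shPHF8, and in these 3 genes the conditions overlapped. In Neurod6, a factor of cortical projection neurons, 1800 and 1200 flank bases were covered in shCTR and 5000 and 6400 in shPHF8, higher in both shPHF8 libraries.

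**Figure D5:**
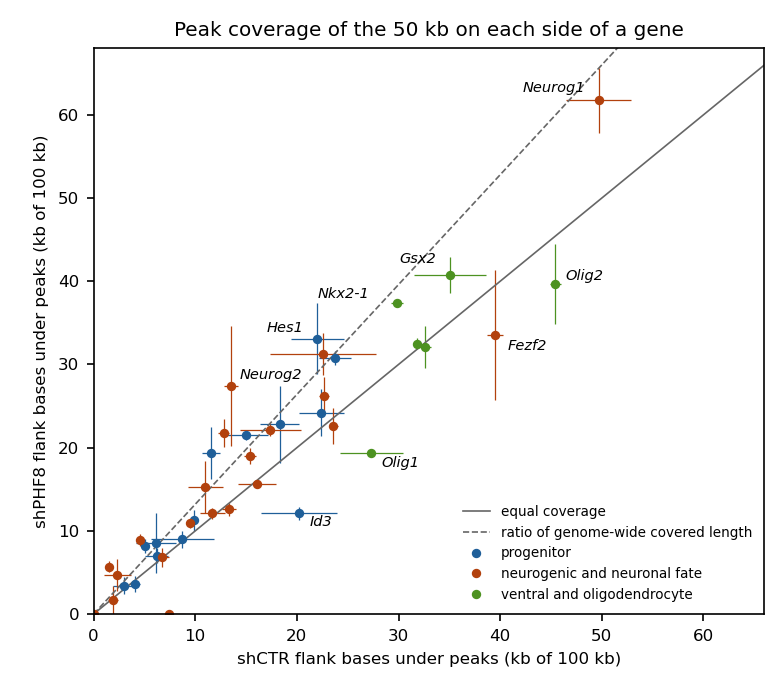
Mean bases under peaks in the 100 kb around each of the 41 genes in shCTR (horizontal axis, kb) and shPHF8 (vertical axis, kb). Bars span the 2 libraries of a condition, the solid line marks equal coverage and the dashed line the genome-wide ratio of 1.32; Neurog2 and Neurog1 lie above the solid line, and Neurog1 falls below the dashed one.

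Flank coverage was up at 17 of the 41 genes (41.5%), where 33.9% of protein-coding genes were up, and down at 4 (9.76%), where 7.05% were down. Among protein-coding genes with a flank peak in at least 1 library the shares were 39.2 and 8.16%, so the members lay close to the background in both directions. The median difference of shPHF8 and shCTR means was 1828.5 bases, beside 1056.25 over protein-coding genes. Hes1, the Notch effector, had 19417 and 24617 flank bases covered in shCTR and 37417 and 28800 in shPHF8. Sox4 had 13318 and 12282 in shCTR and 23400 and 20082 in shPHF8. Emx1 had 10637 and 12437 in shCTR and 22437 and 16237 in shPHF8. These 3 genes, with Neurog1 and Neurog2, were among those where the shPHF8 libraries were clear of the shCTR libraries.

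Flank coverage was down at Id3, Bcl11a, Olig1 and Olig2. Id3 had 16504 and 23904 flank bases in shCTR and 11304 and 12904 in shPHF8. Bcl11a had 9000 and 5800 bases, all upstream, in shCTR and 0 in both shPHF8 libraries. Olig1 had 30429 and 24229 in shCTR and 19429 and 19229 in shPHF8. The Olig1 and Olig2 genes are 41094 bp apart, so their flanks share bases and their calls are not separate. After scaling, 6 of the 41 genes were up (Emx1, Emx2, Neurog2, Neurod6, Pou3f3 and Sox4) and 17 down, beside 16.8 and 20.3% of protein-coding genes. Of the 18958 protein-coding genes with a flank peak in at least 1 library, scaling put 3694 up and 4448 down, to be read beside 6 and 17 of the 40 here. Without shPHF8 replicate 2, 28 genes were up, and without shPHF8 replicate 1, 20 were up and 10 down. Without shCTR replicate 1, 8 were down. Counts with a library left out were made for the 41 genes alone, without a share over protein-coding genes.

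Measured from the edges of the gene, the median distance to the nearest peak was 0 bp over the 41 genes in every library, where 26 and 25 of them overlapped a peak in shCTR and 24 and 22 in shPHF8. In all 4 libraries 19 did (46.3%), beside 29.4% of protein-coding genes. For progenitor factors it was 382 and 1183.5 bp in shCTR and 1642.5 and 1969.5 bp in shPHF8. For neuronal fate factors it was 0 bp in each library. Over protein-coding genes it was 6139 and 5468.5 bp in shCTR and 8058.5 and 5635 bp in shPHF8. These distances were not adjusted for gene length, and all genes over 50 kb long among the 41 are neuronal fate factors. Hes5, Sox2, Sox9 and Emx2 had their nearest peak farther away in both shPHF8 libraries, and Sox1, Neurod4 and Neurod6 had it nearer. For Neurod6 it lay 41022 bp away in both shCTR libraries and 38622 and 8138 bp away in shPHF8.

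By median, promoters of these genes were richer in CpG than those of protein-coding genes, whether or not they carried a peak. The median GC content of the promoter window was 52.8% for the 15 genes with a peak in all 4 libraries and 52.1% for the 17 with none, and the median CpG observed-to-expected ratio was 0.534 and 0.645. Over protein-coding genes the GC medians were 49.2% with a peak in all 4 libraries and 46.0% with none, and the CpG ratio medians 0.37 and 0.311. Of the 17 without a peak, Neurod4 (0.102), Neurod6 (0.302) and Myt1l (0.314) were below the median ratio of 0.323 over all protein-coding genes. Repeat-masked bases made up a median of 12.2% of the 15 windows and 17.3% of the 17, beside 19.4 and 22.2% over protein-coding genes. How composition bears on the calling of peaks was not tested.

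Genes of the Notch pathway, which acts upstream of Hes1 and Hes5, were counted in the same way from a list of 24. A promoter peak in all 4 libraries was present at 6 (25.0%; Notch4, Maml3, Hey2, Heyl, Mfng and Lfng), beside 11.1% of protein-coding genes. Coverage was up at 2 (8.33%) and down at 1 (4.17%), beside 4.05 and 4.09% of protein-coding genes, or 14.5 and 14.6% of those with a promoter peak in at least 1 library, as 14 of the 24 had. Those up were Maml3, a coactivator of the Notch complex (76 and 2076 bases in shCTR, 2476 and 2676 in shPHF8), and Heyl, a target of the pathway (3200 and 2756 in shCTR, 3756 in both shPHF8 libraries). The gene that was down was Hey2, also a target (2201 and 2200 in shCTR, 1801 and 1000 in shPHF8). The receptor Notch4 had 1200 and 1868 bases in shCTR, against 2068 and 1868 in shPHF8. The glycosyltransferase Lfng had 2881 in both shCTR libraries and 2881 and 2481 in shPHF8, and Mfng had 875 in both shCTR libraries and 875 and 1275 in shPHF8. Of Notch1, Notch2, Notch3 and the DLL and JAG ligands, none had a promoter peak in all 4 libraries.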

How the data were processed

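H3K9me3 ChIP-seq libraries (2 shCTR, 2 shPHF8) were grouped by their titles, and the 2 inputs were not used. Per the study's methods, the authors aligned reads to mm10 with SOAPaligner/SOAP2 and called broad peaks with SICER2, whereas the submitters' processing notes list Bowtie2 2.3.5.1, SAMtools 1.9 and deepTools, so the aligner behind these lists is uncertain. Reads were single-end (50 bases). The deposited lists hold peak positions only, 1 list per library, with no score, count or p-value. The depth and the threshold behind each peak are not held in them, and a gene without a peak may still carry reads.

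Each start was taken as 0-based and each end as inclusive, and positions are printed 1-based. Genes came from GENCODE M21 on GRCm38, the same assembly as mm10. Covered bases were counted within 3 kb of the gene start, over the gene record and in 50 kb on each side, with Python 3.11.15 and numpy 2.4.6. Figures were drawn with matplotlib 3.10.9. The counting was tested on simulated data against bedtools 2.31.1. Sequence and composition were read from GRCm38, where lower-case bases of the reference count as repeat-masked. E-boxes were searched as CANNTG.

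Values in every library are given for each gene with a peak in its promoter or body and for the 5 genes with the most and the 5 with the least flank coverage. The gene lists and groups were chosen with earlier results of these data known. Alternatives were leaving out each library, other window sizes, a minimum overlap of 500 bp, wide peaks only, the widest peaks kept until all libraries covered the same length, scaling to the same covered total, a gap of at least 1000 bases and a replicate block. A stricter peak threshold could not be applied because the lists hold no score.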

Additional observations from a re-analysis of the deposited data

How the results depend on the processing

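Results cover called peaks only, and a change in height within a peak is not seen. The 15 genes with a promoter peak in all 4 libraries, and the 3 progenitor and 4 ventral genes among them, stayed within 1.5 times under every alternative run. The 8 neuronal fate genes became 5 when each library kept its widest peaks until all covered the same length (equal length). Scaling covered bases to the same total removes the longer shPHF8 coverage by construction and puts fully covered windows such as that of Nkx2-1 down. It gave 1 up and 12 down at promoters, 3 and 12 in gene bodies and 6 and 17 in flanks. At equal length, 3 gene bodies were up and 5 down, and 9 flanks were up and 11 down. A gap of at least 1000 bases left 0 promoters up and 1 down, and 3 bodies up and 1 down. Within 1 kb of the start 0 promoters were up and 1 down, with wide peaks only 4 promoters were down, and in flanks of 10 kb 5 genes were up and 8 down. Leaving out 1 library at a time eases the call for any gene, since fewer values must be separated. Apart from scaling, the alternatives were counted for the 41 genes only. Their counts therefore have no share over protein-coding genes beside them. Body counts were then from 6 to 10 up and from 5 to 9 down, and flank counts from 20 to 28 up and from 4 to 10 down. The median over the 41 genes of the mean distance to the nearest peak was 66 bp, from 0.0 to 88.0 bp with 1 library left out, 295 bp with wide peaks only, 280 bp at equal length and 4570 bp from the gene start.

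Differences in single genes turned in these cases, and beyond the construction of each alternative the cause was not tested. Scaling turned the promoters of Pax6 (-604 bases) and Dlx1 (-752), the body of Pax6 (-271) and the flanks of Sox1 (-409), Nr2e1 (-1438), Neurog1 (-3191), Bcl11b (-573), Cux2 (-3223), Pou3f2 (-1386), Myt1l (-1110) and Nkx2-1 (-1586). Equal length turned the bodies of Cux1 (-500), Myt1l (-500) and Prox1 (-2700) and the flanks of Cux2 (-4966), Pou3f2 (-3190), Pou3f3 (-2367) and Myt1l (-1100). Wide peaks only turned the body of Bcl11b (100). Flanks of 10 kb turned Nr2f1 (-514), Neurog1 (-500), Pou3f2 (-2290) and Sox4 (-400).

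Deviations of same-numbered libraries from their condition means had a correlation of -0.04 over the flanks of protein-coding genes, so these values showed no pairing by replicate number. With 2 libraries per condition this cannot decide whether same-numbered libraries shared a culture or batch. With the replicate block, both pairs in the same direction, 4 promoters were up and 7 down, 6 bodies were up and 3 down, and 21 flanks were up and 4 down.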

Other observations

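A list of 40 other neural transcription factors, outside the 41 described above, was counted in the same windows. A promoter peak in all 4 libraries was present at 12 of them (30.0%), beside 11.1% of protein-coding genes. Nr2f2, a factor of caudal interneurons, had all 6001 promoter bases covered in every library. Nhlh2, a neuronal basic helix-loop-helix factor, had 4476 and 5676 bases in shCTR, against 5476 and 5076 in shPHF8, and Otx2, a forebrain and midbrain factor, had 4782 and 5201 in shCTR and 6001 and 3382 in shPHF8. In these genes the conditions overlapped or were equal, as they were at Gsx1, Lhx5, Sox10 and Nkx2-2. Coverage was up at 2 (5.0%) and down at 3 (7.5%), beside 4.05 and 4.09% of protein-coding genes. A promoter peak in at least 1 library was present at 21 of the 40, and of protein-coding genes with such a peak 14.5% were up and 14.6% down. Coverage was up at Dmrt3 (4801 in both shCTR libraries, 5001 and 6001 in shPHF8) and Sox21 (630 in both shCTR libraries, 1030 in both shPHF8 libraries). It was down at Dmrta2, a cortical progenitor factor (4001 and 4201 in shCTR, 3201 and 3401 in shPHF8), and Lhx6, a factor of medial interneurons (5001 and 5201 in shCTR, 4193 and 393 in shPHF8), as well as at Otx1 (504 and 904 in shCTR, 104 and 0 in shPHF8).

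Gene bodies of the same 40 factors were down at 11 (27.5%), where 6.08% of protein-coding genes were down, and up at 3 (7.5%), where 13.0% were up. At least 1 library had a body peak at 31 of the 40 (77.5%, beside 47.2% of protein-coding genes), and of protein-coding genes with such a peak 12.9% were down and 27.6% up. The bodies that were down included Otx1, Dmrta2, Dmrt3 and Gsx1, examples of the 11 that were chosen for mention after values were seen. The summed body coverage of the 40 factors was 489428 and 530784 bases in shCTR, against 470924 and 416521 in shPHF8, while over protein-coding genes it was 73104943 and 75275926 in shCTR and 93539808 and 83962110 in shPHF8. Much of the sum for the 40 came from Sox5 (126800 and 149600 in shCTR, 133800 and 130800 in shPHF8) and Tcf4 (112879 and 126200 in shCTR, 107800 and 95400 in shPHF8). Bodies of the Notch list were more often up than down, as over protein-coding genes, with 7 of 24 up (29.2%) and 2 down (8.33%). At least 1 library had a body peak at 18 of the 24 (75.0%). The 7 and 2 of these 18 are to be read beside the 27.6% up and 12.9% down above.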
